A study of Homo sapiens with 15 samples.

Results

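In the human colon carcinoma line Caco-2, whose cells are epithelial, 23 of 19775 genes on the array separated every culture given colon simulator fluid from every culture given none. A gene was taken when its lowest value in 12 fluid arrays exceeded its highest value in 3 control arrays, or its highest fluid value lay under its lowest control value, by at least 0.5 on the log2 scale. The brighter side had to reach log2 6 in each of its arrays. Of the 23 genes 22 were higher with fluid and 1, ICAM3, was lower. The rule itself chose these genes by the difference between fluid and control, so that difference is given below as a description, with no test.

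All cultures were non-differentiated Caco-2 cells kept for 24 h, and each treatment was read on 1 array. The fluid cultures received, at 10% by volume in serum-free medium, the cell-free product of a 48 h fermentation with 0%, 1% or 2% polydextrose, a poorly digested glucose polymer. The simulator has 4 linked vessels for the ascending colon (vessel 1), transverse colon (vessel 2), descending colon (vessel 3) and sigmoid colon with rectum (vessel 4), so that each concentration had 4 arrays. The control arrays were medium alone, 100 mM NaCl and 5 mM butyrate. They are 3 different treatments, not repeats of 1 control. Each concentration was fermented in 1 simulation, and repeat cultures are not named in the labels. The p-values below therefore measure only the spread between arrays, whose number limits the precision. Since the fluid without polydextrose is among the 12 fluid arrays, a gene that meets the rule differs with fluid whether or not polydextrose was fermented in it.

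Fermentation by gut bacteria yields short-chain fatty acids, among them butyrate, and other products such as indoles. Epithelial cells take up butyrate as fuel, and butyrate also inhibits histone deacetylases, while microbial indoles and other planar molecules can bind the aryl hydrocarbon receptor, which turns on CYP1A1. Epithelia that face a harsh lumen or the air also form junctions, mucins and, in squamous tissue, a cornified envelope of small cross-linked proteins. These sentences are background on the genes named below.

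Values under log2 5 are treated as low, and each array had 42.3% to 44.1% of its genes at or above that level. For ACTB the 3′ minus the 5′ control value grows as RNA degrades. It was 0.585 to 0.951 in the controls and 0.366 to 0.924 with fluid. These ranges overlapped, but medium, at 0.951, lay above every fluid array. Vessel 1 with 1% polydextrose gave the 0.924, and the other fluid arrays were at 0.73 or less. Of 13 listed markers of intestinal epithelium 12 were measured. At log2 5 or more in all 15 arrays were 7 of these (EPCAM, CDH1, CDH17, KRT8, KRT18, KRT19 and KRT20). The 5 others measured, from among CDX1, CDX2, VIL1, LGALS4, HNF4A and GPA33, stayed under it in all. The 7 leukocyte and 6 endothelial markers were under log2 5 in all arrays. Of 8 fibroblast markers only COL1A1 reached that level, in the butyrate control and in fluid arrays.

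The 22 higher genes were separated by 0.50 to 1.73 (median 0.67) between the highest control and the lowest fluid array. They made up 0.317% of the 6939 genes at log2 6 or more in all fluid arrays, and ICAM3 made up 0.015% of the 6674 genes at that level in all control arrays. Since the rule used this contrast, nothing is read from these shares. For 13 of the 22 genes all 15 arrays were at log2 5 or more. For 8 genes some controls lay under that level, and for ST6GALNAC2 all 3 did. With controls under log2 5 set to 5, the mean of the fluid arrays exceeded that of the control arrays by a median of 1.64, from 0.86 for GPR157 to 3.13 for SPRR2B, and for these 9 genes the difference is a lower bound.

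**Figure D1:**
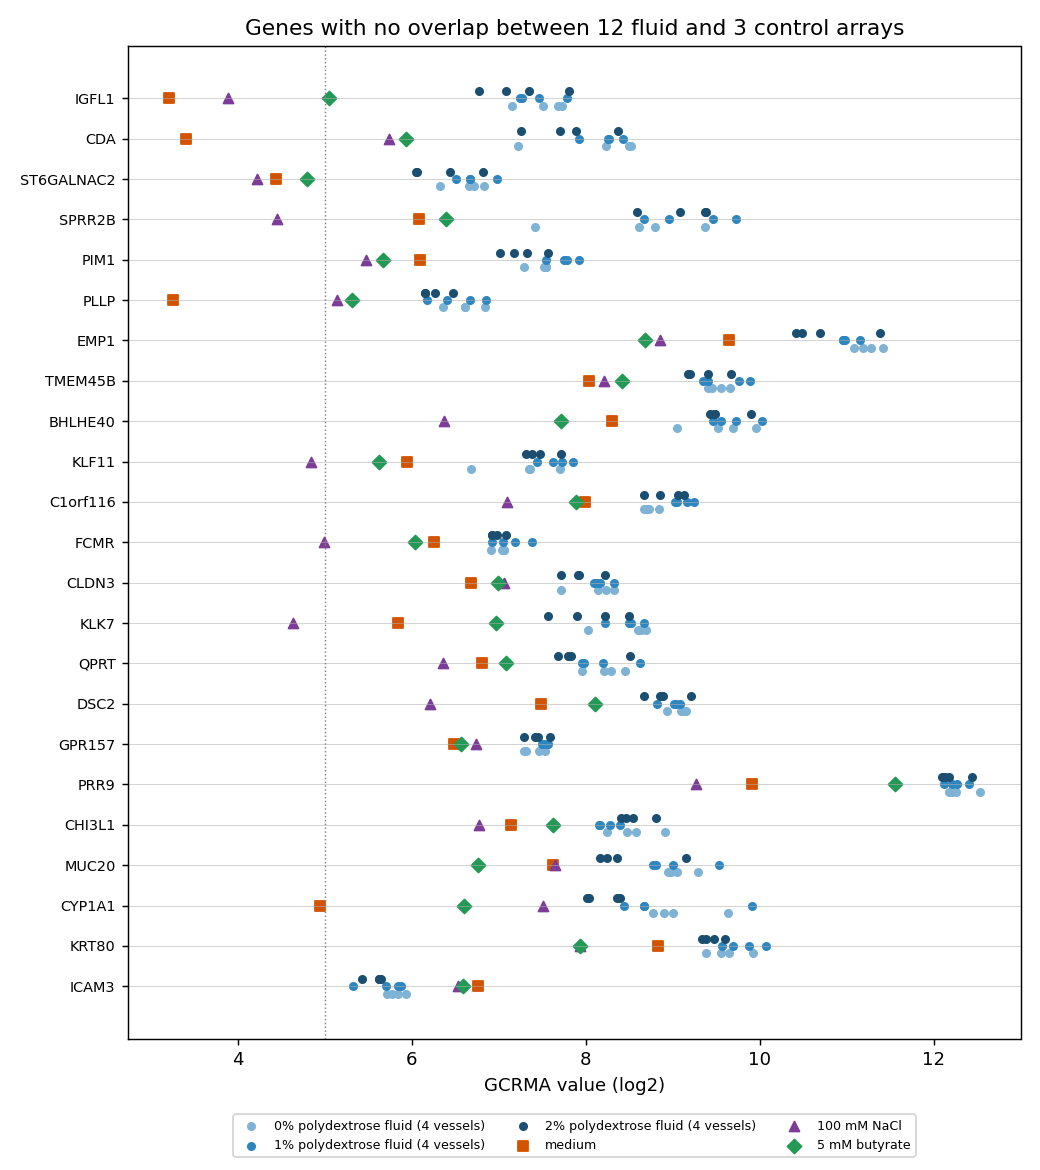
Log2 GCRMA value (x axis) of each of the 23 genes (y axis) in every array, with circles for the 12 fluid arrays shaded by polydextrose concentration and squares, triangles and diamonds for medium, NaCl and butyrate. The dotted line marks log2 5, and in each of the 22 upper rows all circles lie to the right of all controls, with ICAM3 reversed.

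In squamous epithelium cells fill with keratin, build a cornified envelope and are finally shed. SPRR2B, PRR9 and KLK7 are known from that process, and they are described here with DSC2 and KRT80, a desmosomal protein and a keratin that other epithelia also make. SPRR2B, a small proline-rich protein that is cross-linked into that envelope, ranged from 7.42 through a median of 9.02 to 9.73 in fluid. Its controls were 6.09 in medium, 4.45 with NaCl and 6.40 with butyrate, a gap of 1.01. No fluid array overlapped a control, and the lowest fluid array was vessel 1 without polydextrose. Its probe set may also read near-identical SPRR2 copies, so the value cannot be assigned to SPRR2B alone.

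PRR9, a proline-rich protein encoded in the same gene cluster, had fluid values of 12.09, 12.21 and 12.53 (lowest, median and highest). Medium gave 9.91, NaCl 9.26 and butyrate 11.55. The gap of 0.54 was thus set by butyrate, which lay 1.64 above medium. KLK7, a secreted protease that cuts the links between shed skin cells, had fluid values of 7.57, 8.50 and 8.69. Its controls were 5.85 in medium, 4.64 with NaCl and 6.97 with butyrate, and butyrate was again the nearest. DSC2, a cadherin of desmosomes in many epithelia, had 8.66, 9.02 and 9.21 in fluid. Its controls were 7.48 in medium, 6.21 with NaCl and 8.11 with butyrate, and DSC2 no longer met the rule when its probe sets were averaged. KRT80, a type II keratin of epithelia, had 9.34, 9.59 and 10.08 in fluid. Here medium, at 8.84, was nearest, and NaCl (7.94) and butyrate (7.93) were almost equal. KRT80 no longer met the rule after array median centring or quantile normalization of the deposited values. In this group the NaCl array was the lowest control for SPRR2B, PRR9, KLK7 and DSC2.

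The promoter of PRR9 is printed because it holds a match to TGANTCA, the sequence bound by AP-1 factors, which is in capitals at -137 from the start. Sequences are from RefSeq on GRCh38.p14, 250 bases before to 50 after the gene start, 5′ to 3′ on the gene's strand.
PRR9 promoter, chr1:153217334-153217633, plus strand: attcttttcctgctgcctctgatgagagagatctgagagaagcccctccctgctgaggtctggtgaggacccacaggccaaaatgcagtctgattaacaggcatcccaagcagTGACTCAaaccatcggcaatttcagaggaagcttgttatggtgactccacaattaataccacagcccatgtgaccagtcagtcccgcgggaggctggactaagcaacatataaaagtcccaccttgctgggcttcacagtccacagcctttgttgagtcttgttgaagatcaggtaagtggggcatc
Promoters were matched for 19 of the 23 genes (27 promoters, since some genes have several), and TGANTCA on either strand was in 3 of them, against 7.71% of all 35116 promoters of that length. A match describes the letters and does not show a site in use.

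Other genes of the epidermal differentiation region, chosen after the values were seen, gave a mixed picture. Of 45 measured genes 13 reached log2 6 in some array, and 5 of these were higher in fluid than in control in limma, a linear model fitted to all 8963 genes tested, with Benjamini-Hochberg adjustment. In that model 12.8% of all genes tested were higher and 9.04% lower. SPRR2B and PRR9 are 2 of these 5, and the rule had chosen them on this contrast. Without them 3 of 10 tested genes were higher, namely SPRR1A, S100A9 and S100A14. SPRR1A, another envelope precursor, had fluid values of 5.30, 7.72 and 8.84 and 8.70 with butyrate, but only 2.07 in medium and 1.68 with NaCl, so its butyrate array lay inside the fluid range. S100A14, a calcium-binding protein, was at 10.98, 11.29 and 11.51 in fluid and at 10.41, 10.13 and 10.56 in medium, NaCl and butyrate. It missed the rule with a gap of 0.42. Of 14 kallikreins 3 reached log2 6, and the others, KLK6 and KLK10, overlapped with the controls.

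A further 6 genes encode proteins of junctions, membranes or the mucosal surface. EMP1, a small protein with 4 membrane spans found in many epithelia, was at 10.42, 11.04 and 11.41 in fluid. Medium gave 9.65, NaCl 8.86 and butyrate 8.68. All fluid arrays lay above all controls, and medium set the gap of 0.77. Another probe set of EMP1 gave a gap of 0.99, but EMP1 no longer met the rule when its 6 probe sets, 4 of them dim, were averaged. Its promoter is printed because it has 2 matches to TGANTCA, in capitals at -175 and -48.
EMP1 promoter, chr12:13196476-13196775, plus strand: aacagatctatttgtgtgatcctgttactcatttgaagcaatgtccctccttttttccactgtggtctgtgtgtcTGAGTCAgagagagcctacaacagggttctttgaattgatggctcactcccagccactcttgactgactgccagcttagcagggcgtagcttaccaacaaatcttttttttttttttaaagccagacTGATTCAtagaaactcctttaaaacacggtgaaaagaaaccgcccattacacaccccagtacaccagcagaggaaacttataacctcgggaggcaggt

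CLDN3, a claudin that tightens the seal between epithelial cells, had 7.72, 8.14 and 8.32 in fluid. Its controls were close together, at 6.68 in medium and 7.06 with NaCl, with butyrate between them. PLLP, a myelin and epithelial membrane protein, had 6.15, 6.44 and 6.86 in fluid. Medium was far lower, at 3.26 and thus under log2 5, than NaCl (5.14) and butyrate (5.31). TMEM45B, a transmembrane protein, had 9.18, 9.43 and 9.89 in fluid, against 8.04 in medium, 8.21 with NaCl and 8.41 with butyrate. Its fluid and control ranges were both narrow.

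MUC20, a membrane mucin, had 8.16, 8.96 and 9.53 in fluid. Butyrate gave the lowest control, 6.76, while medium (7.63) and NaCl (7.65) were equal to within 0.02. A second probe set of MUC20 overlapped between the groups by 0.10. MUC20 no longer met the rule when its probe sets were averaged or after median centring. ST6GALNAC2, an enzyme that adds sialic acid to the sugar chains of mucins and other glycoproteins, had 6.05, 6.67 and 6.98 in fluid. All its controls were low, at 4.45 in medium, 4.23 with NaCl and 4.79 with butyrate. With the controls set to log2 5 the difference of means was 1.56, so the gene was at least 2.95-fold higher in fluid.

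Of 11 tight junction genes tested 8 were higher in fluid and 0 lower by limma, and 3 did not pass (median log2 difference 0.72, against 0.01 over all 8963 genes tested). Of all genes tested 12.8% were higher and 9.04% lower. CLDN3 is among the 8 and was chosen on this contrast; without it 7 of 10 were higher. OCLN, the junction protein occludin, was at 10.76 to 11.26 in fluid and 9.81 to 10.53 in the controls (difference 0.84, adjusted p = 0.00113). CLDN4, a sealing claudin, differed by 0.84 (adjusted p = 0.00115). CLDN2, which forms cation pores, was at 8.46 in medium, 6.63 with NaCl and 3.04 with butyrate, and its fluid arrays lay between 3.07 and 6.87 (adjusted p = 0.356). The count of 8 was 6 after array median centring and 4 without the NaCl array.

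Described next are 3 of the enzymes among the 23 genes, which act on foreign compounds, nucleosides and NAD precursors. CYP1A1, a monooxygenase of planar aromatic molecules and the best known target of the aryl hydrocarbon receptor, had 8.02, 8.67 and 9.91 in fluid. The controls spread widely, with 4.95 in medium, 7.51 with NaCl and 6.60 with butyrate. NaCl alone set its gap of 0.50, and medium, under log2 5, lay at least 3.73 under the fluid mean. After median centring CYP1A1 no longer met the rule. Its promoter is printed because it holds GCGTG, the core bound by the receptor, in capitals at -57.
CYP1A1 promoter, chr15:74725479-74725778, minus strand: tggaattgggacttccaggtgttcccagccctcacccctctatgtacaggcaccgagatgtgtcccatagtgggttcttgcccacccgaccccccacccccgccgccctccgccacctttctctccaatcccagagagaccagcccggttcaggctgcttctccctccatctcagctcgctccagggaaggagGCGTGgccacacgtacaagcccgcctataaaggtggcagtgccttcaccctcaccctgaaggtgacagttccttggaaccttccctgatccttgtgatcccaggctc
GCGTG on either strand was in 7 of the 27 promoters (of CYP1A1, FCMR, GPR157, ICAM3 and KLF11) and in 36.5% of all promoters.

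CDA, which deaminates cytidine in pyrimidine salvage, had 7.22, 8.24 and 8.52 in fluid. Medium was at 3.41, under log2 5, while NaCl (5.74) and butyrate (5.94) differed by 0.20. The gap of 1.28 is a 2.43-fold step from butyrate to the lowest fluid array, vessel 1 without polydextrose. QPRT, which makes a precursor of NAD from the tryptophan product quinolinate, had 7.69, 8.09 and 8.63 in fluid. Its controls were 6.81 in medium, 6.37 with NaCl and 7.09 with butyrate. A second probe set of QPRT gave a gap of 0.70.

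Of 7 tested genes of the aryl hydrocarbon receptor and its targets 4 were higher in fluid by limma and 0 lower (median 0.90). Over all genes tested 12.8% were higher and 9.04% lower. The count of 4 was 3 without the medium array and 5 without the NaCl or the butyrate array. CYP1A1 is among the 4 and was chosen on this contrast; without it 3 of 6 were higher. They were TIPARP, a repressor of the receptor (difference 1.17 ± 0.14, SE, adjusted p = 2.59e-04), the quinone reductase NQO1 (0.94 ± 0.15, adjusted p = 0.00126) and CYP1B1, a related monooxygenase (0.90 ± 0.24, adjusted p = 0.0173). TIPARP did not overlap between the groups, at 10.46 to 11.10 in fluid and 9.43 to 10.12 in the controls. CYP1B1 overlapped with NaCl by 0.11 and did not pass without the medium array (adjusted p = 0.114). AHR itself was at 9.52 to 9.95 in fluid and 9.08 to 9.78 in the controls, and did not pass (adjusted p = 0.108).

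The regulators among the 23 genes were BHLHE40, KLF11 and PIM1. BHLHE40, a repressor that dampens the circadian clock and responds to low oxygen and growth signals, had 9.05, 9.54 and 10.03 in fluid. Its controls were 8.30 in medium, 6.37 with NaCl and 7.71 with butyrate. Medium set the gap of 0.75, and NaCl lay 3.23 under the fluid mean. BHLHE40 no longer met the rule when its probe sets, of which the other had a gap of 0.11, were averaged. Its promoter is printed for the E-box CACGTG, the sequence that clock factors bind, in capitals at -245.
BHLHE40 promoter, chr3:4979187-4979486, plus strand: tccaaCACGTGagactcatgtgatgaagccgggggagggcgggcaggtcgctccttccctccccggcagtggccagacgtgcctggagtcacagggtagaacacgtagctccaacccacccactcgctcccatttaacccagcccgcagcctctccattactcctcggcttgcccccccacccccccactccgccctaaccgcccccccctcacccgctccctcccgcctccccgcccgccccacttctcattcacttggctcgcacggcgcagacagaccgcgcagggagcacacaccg
CACGTG was in 2 of the 27 promoters, those of BHLHE40 and KLF11, and in 7.26% of all promoters. No match to it is also a match to GCGTG.

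KLF11, a zinc finger transcription factor of growth control, had 6.69, 7.46 and 7.85 in fluid. Medium was at 5.95, NaCl at 4.84 and butyrate at 5.62, and the averaged probe sets of KLF11 did not meet the rule. PIM1, a kinase that favours survival and growth, had 7.01, 7.54 and 7.93 in fluid, against 6.10 in medium, 5.48 with NaCl and 5.67 with butyrate. For all 3 regulators medium was the nearest control and NaCl the lowest.

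Of 9 clock genes tested 6 were higher and 1 lower in fluid by limma (median 0.64), beside 12.8% higher and 9.04% lower of all genes. BHLHE40 is among the 6 and was chosen on this contrast; without it 5 of 8 were higher. DBP, an output factor of the clock, differed most (2.91 ± 0.47, SE, adjusted p = 0.00126), but its butyrate array, at 7.89, lay inside the fluid range of 7.64 to 9.23. BHLHE41, the paralog of BHLHE40, had 6.37 with butyrate, also inside its fluid range of 5.60 to 6.92. CRY1, a core repressor, was the gene that was lower (difference -0.50, adjusted p = 0.0106). Without the NaCl array 3 clock genes passed as higher and 0 as lower.

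**Figure D2:**
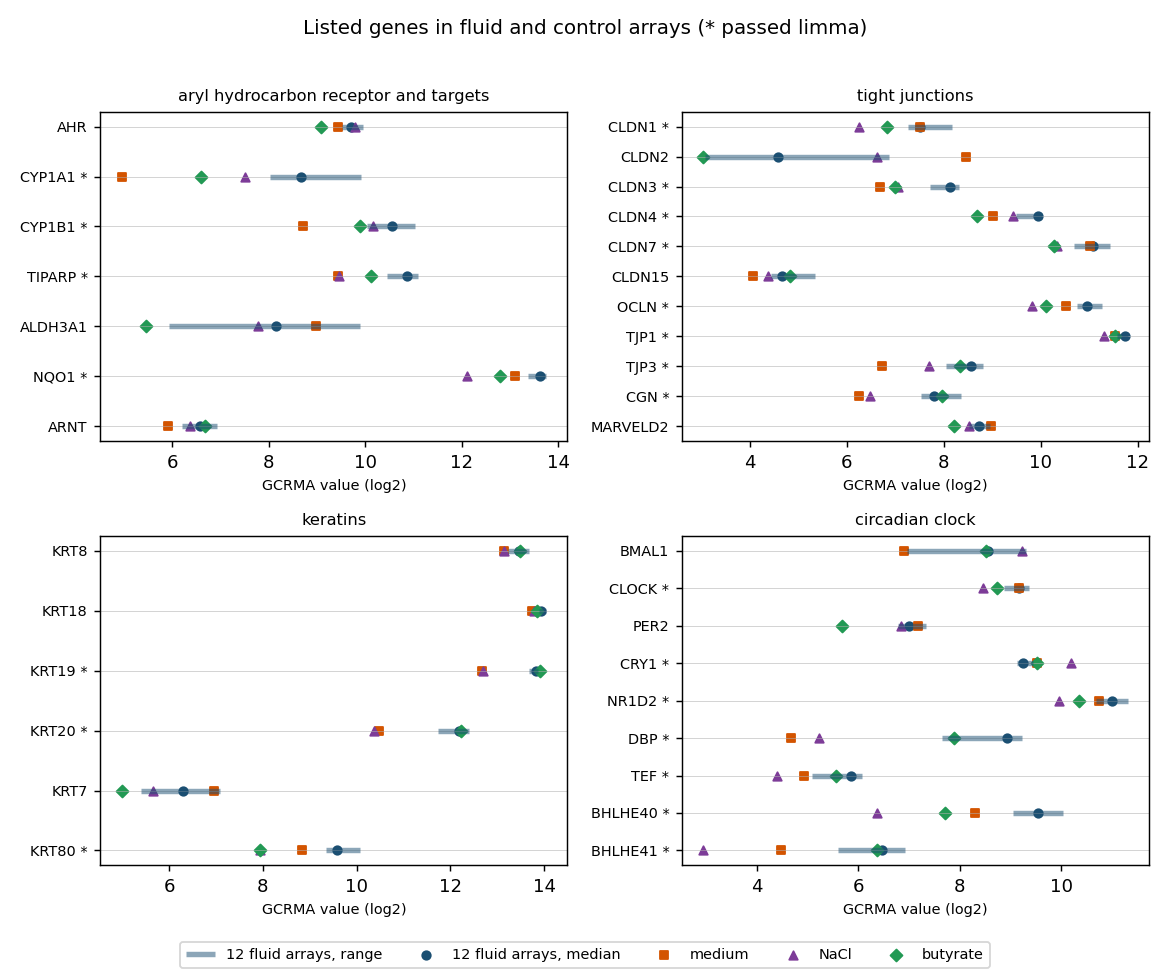
Log2 GCRMA value (x axis) of the tested genes of 4 lists (y axis), with a bar from the lowest to the highest of 12 fluid arrays, a circle at their median, and squares, triangles and diamonds for medium, NaCl and butyrate. An asterisk marks adjusted p under 0.05 in limma. CYP1A1, CLDN3, KRT80 and BHLHE40 belong to the 23 genes chosen on this contrast, so their asterisks are no test. Several other marked genes, such as KRT20 and DBP, have butyrate within the fluid bar.

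Another 5 genes are secreted, act as receptors or have no settled role. IGFL1, a secreted protein related to insulin-like growth factors, had the widest gap, 1.73 or 3.32-fold, with 6.78, 7.41 and 7.81 in fluid. Medium was at 3.21 and NaCl at 3.89, both under log2 5, and butyrate was at 5.05. IGFL2, its neighbour in the family, was at 8.50 to 9.87 in fluid but at 9.52 with NaCl, and so overlapped.

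CHI3L1, a secreted chitin-binding glycoprotein raised in inflamed colon, had 8.16, 8.44 and 8.91 in fluid. Its controls were 7.15 in medium, 6.78 with NaCl and 7.63 with butyrate. CHI3L1 no longer met the rule with averaged probe sets, after median centring or after quantile normalization. FCMR, a receptor for the constant part of IgM known from lymphocytes, had 6.92, 7.04 and 7.38 in fluid, against 6.26 in medium, 4.99 with NaCl and 6.04 with butyrate. The fluid arrays of FCMR had an SD of 0.13 (n = 12), and FCMR no longer met the rule after median centring. None of the 7 leukocyte markers reached log2 5 in any array.

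GPR157, an orphan receptor, had 7.29, 7.48 and 7.59 in fluid and 6.49, 6.74 and 6.57 in medium, NaCl and butyrate. It had the smallest difference of means, 0.86, and the smallest spread over fluids, an SD of 0.11 (n = 12), and it no longer met the rule with averaged probe sets or after median centring. C1orf116, an androgen-responsive gene of unclear function, had 8.67, 8.94 and 9.25 in fluid, against 7.99 in medium, 7.09 with NaCl and 7.89 with butyrate. Both its other probe sets were also separated, by 0.54 and 0.24, but after median centring C1orf116 no longer met the rule.

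ICAM3, an adhesion molecule best known from leukocytes, was the only gene lower in fluid by the rule. It had 5.33, 5.71 and 5.93 in fluid and 6.76, 6.54 and 6.60 in medium, NaCl and butyrate. The 3 controls lay within 0.22 of each other, and the gap to the highest fluid array was 0.61.

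How far the fluids stood from each control was then described, since the rule asks only for the nearest. With controls under log2 5 set to 5, the fluid mean of the 22 higher genes exceeded medium by a median of 1.43 (0.79 to 3.73), NaCl by 1.93 (0.72 to 3.95) and butyrate by 1.46 (0.70 to 2.55). Butyrate was the nearest control for 11 of the genes, medium for 7 and NaCl for 4. NaCl was the lowest control for 12, medium for 7 and butyrate for 3, although the low controls of IGFL1 and ST6GALNAC2, all under log2 5, have no order. Butyrate exceeded medium for 14 of the 22 genes, with PRR9 and KLK7 as examples. It lay under medium for others such as EMP1 and MUC20. The 14, and the 11 with butyrate nearest, include ST6GALNAC2, whose controls have no order. The matching shares among all genes were not counted.

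**Figure D3:**
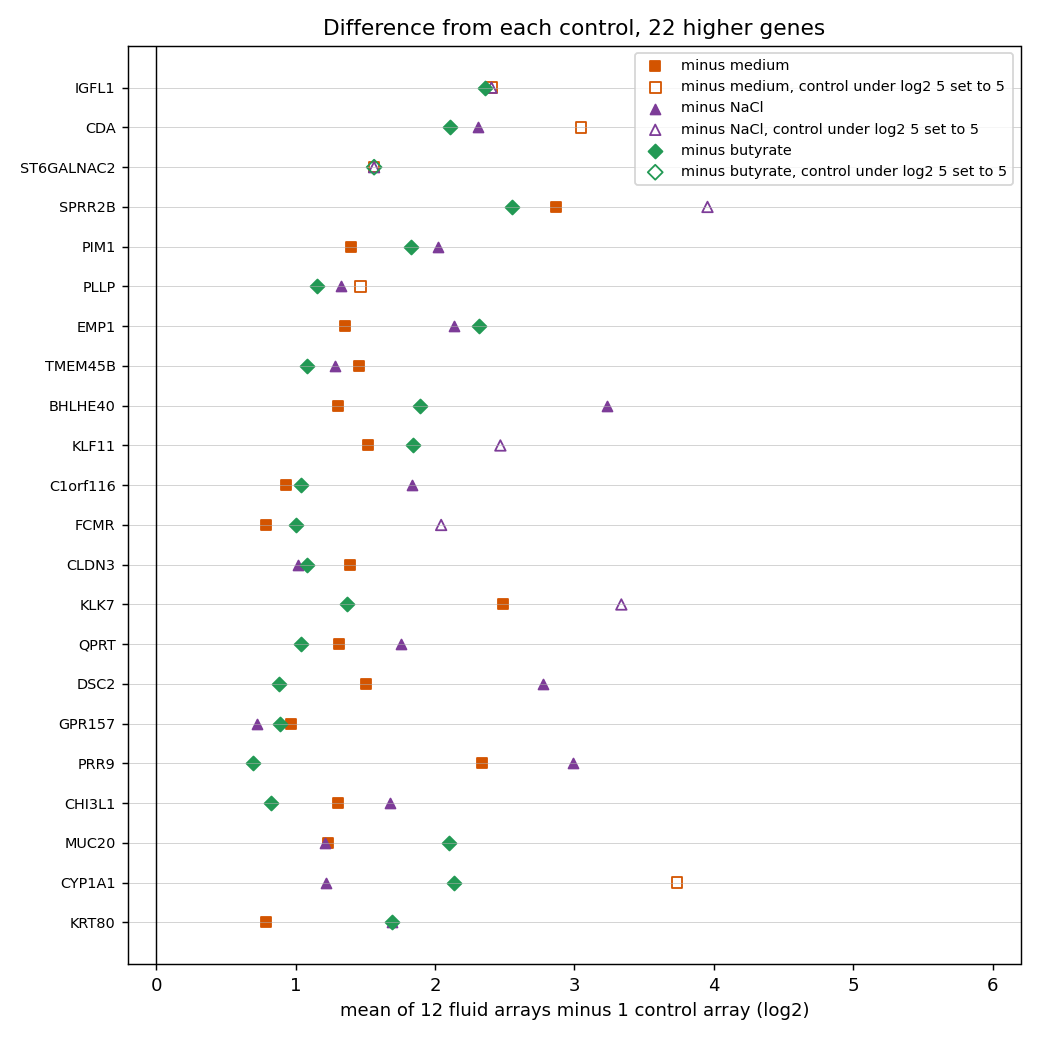
Mean of the 12 fluid arrays minus each single control array in log2 units (x axis) for the 22 higher genes (y axis), with squares for medium, triangles for NaCl and diamonds for butyrate. Open symbols mark controls under log2 5, which were set to 5, so these distances are lower bounds; all values are above 0, as the rule requires.

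The controls differed in how much they narrowed the set. Against medium alone 762 genes were higher and 619 lower in all 12 fluids by the same limits, against NaCl alone 1008 and 1052, and against butyrate alone 370 and 280. These single-control counts were added after the data were seen. With medium and NaCl together, leaving butyrate out, 399 were higher and 219 lower. With medium and butyrate together 40 and 2 met the rule, and with NaCl and butyrate together 65 and 28. Of the 3 controls, butyrate thus removed the most genes from the set. Leaving out an array can only widen a gap, so all 23 genes were kept in each of these sets.

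**Figure D4:**
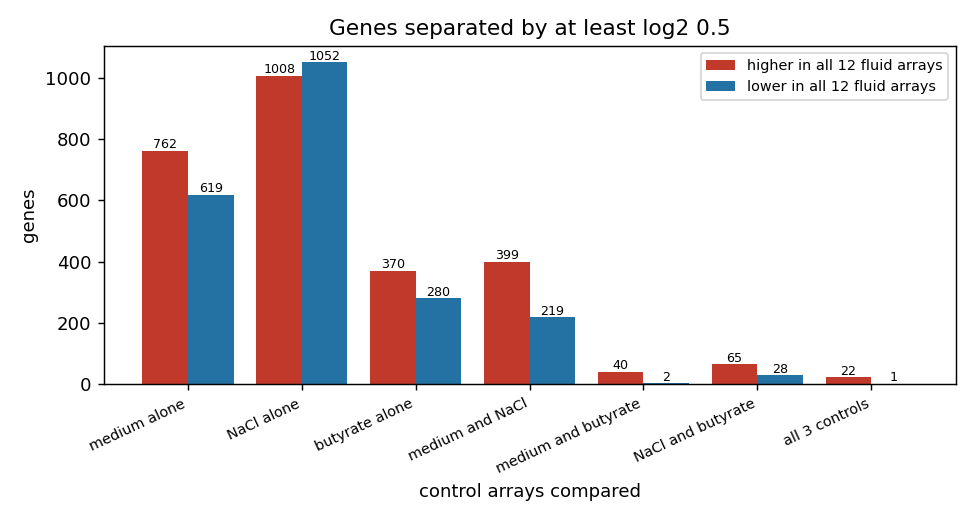
Number of genes (y axis) whose 12 fluid arrays all lay above (red) or all below (blue) the control arrays named on the x axis by at least 0.5 on the log2 scale. The counts fall from 1008 and 1052 against NaCl alone to 22 and 1 against all 3 controls.

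Among the fluids the 23 genes were compared by concentration and by vessel. The rule did not use these contrasts, but it set a limit on the fluid array nearest the controls. The counts among the 23 genes are therefore not independent of that choice. With vessel as a block, the 2% and 0% fluids differed in 2 of the 23 genes by limma, both lower with 2%. They differed in 20.8% of the 8737 genes tested (11.2% lower). Each concentration came from 1 simulation with linked vessels, so polydextrose and the simulation cannot be told apart here. CYP1A1 was 9.08 ± 0.38 with 0% and 8.20 ± 0.20 with 2% (SD, n = 4), a difference of -0.88 (limma adjusted p = 0.0139), and was lower in all 4 vessels. MUC20 was 9.07 ± 0.16 with 0% and 8.48 ± 0.46 with 2% (SD, n = 4; difference -0.59, limma adjusted p = 0.0259), and was lower in 3 of 4 vessels. In all 17 of the 23 genes had a negative difference and 6 a positive one (median -0.18, against -0.01 over all genes tested). These genes were read on the same arrays, so their signs are not independent, and the share of all genes with a negative difference was not counted. Without the vessel block 0 of the 23 genes passed (4 at an unadjusted p under 0.05). With the block, 0 also passed when the 0% array of vessel 2 or of vessel 3 was left out. CYP1A1 was lost under 3 of 19 alternatives and MUC20 under 7. Without the 3 arrays of vessel 1 the number passing was 13. The share of all genes passing under these alternatives was not counted, so the 13 are not read as particular to this set.

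Against the mean of vessels 2 to 4, vessel 1 differed in 2 of the 23 genes and in 34.7% of all genes tested. SPRR2B was lower in vessel 1 (difference -0.97, limma adjusted p = 0.00517) and MUC20 higher by 0.52 (limma adjusted p = 0.0213). Without the concentration factor neither passed (adjusted p = 0.0637 for SPRR2B and 0.133 for MUC20 in limma), and MUC20 also did not pass without the 1% or the 2% array of vessel 1. Without the 0% array of vessel 1 the number was 9, and here too the share of all genes was not counted.

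Vessel 1 also differed in the direction of the polydextrose difference. An interaction added after the data were seen compared 2% minus 0% in vessel 1, with 1 array each, with the same difference in vessels 2 to 4. The spread in this test comes only from vessels 2 to 4, which were pooled without a vessel block. The single arrays of vessel 1 are assumed to vary like them. This test was never run with an array of vessel 1 left out. It passed for 8 of the 23 genes, against 5.87% of all genes tested (3.67% with the more positive difference in vessel 1): IGFL1, CDA, ST6GALNAC2, EMP1, BHLHE40, CLDN3, QPRT and MUC20. For CDA the difference was 1.16 in vessel 1 and -0.80 in the mean of the others (limma adjusted p for the interaction = 0.0234). For EMP1 it was 0.30 and -0.76 (limma adjusted p = 0.0184), and for BHLHE40 0.85 and -0.26 (limma adjusted p = 0.0286). CDA, EMP1, BHLHE40, CLDN3 and QPRT passed under all 12 alternatives run, while MUC20 was lost under 9 of them, IGFL1 under 5 and ST6GALNAC2 under 2. In all 8 genes the value with 2% was the higher one in vessel 1 and the mean difference was negative in the later vessels. The 2% arrays gave the lowest fluid value for 15 of the 22 higher genes and vessel 3 for 8. The matching shares among all genes were not counted.

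**Figure D5:**
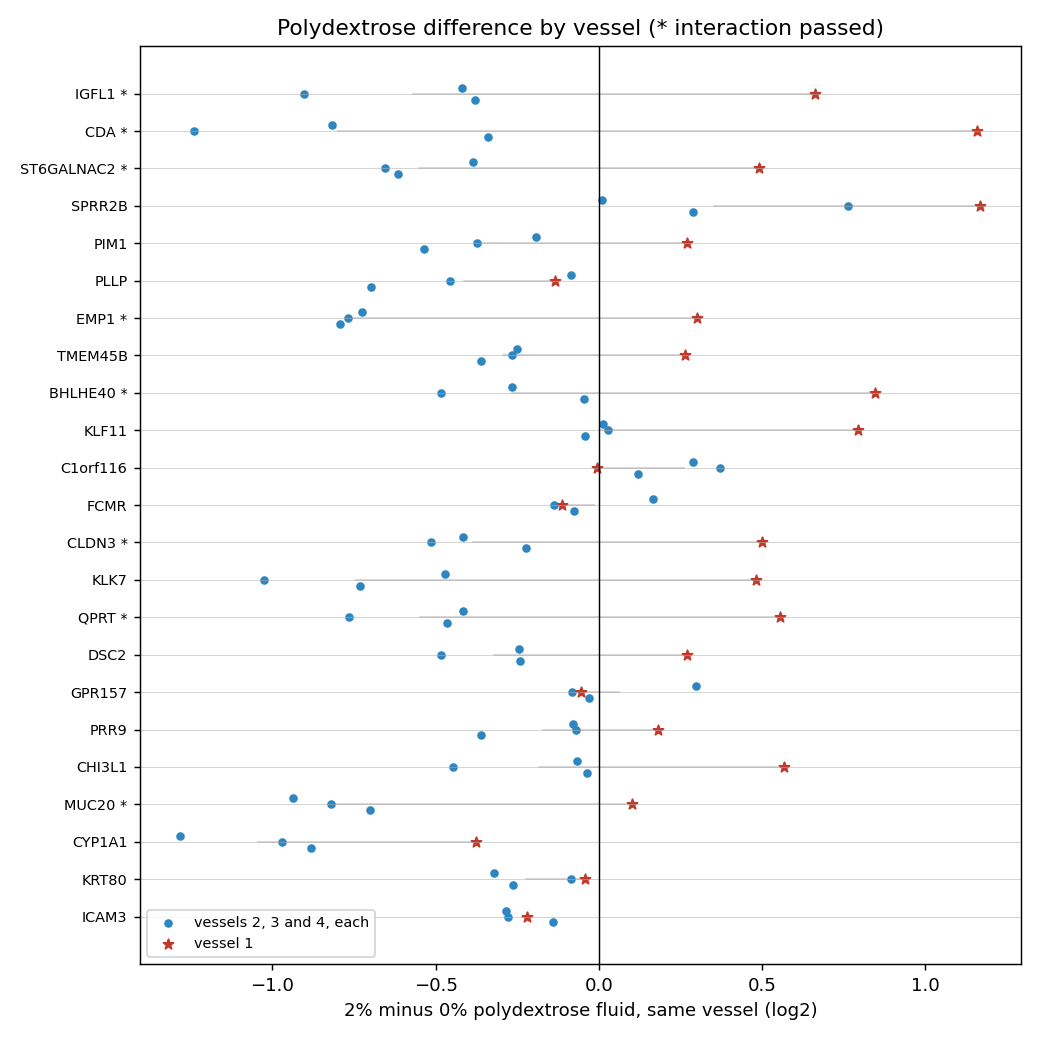
Difference between the 2% and 0% polydextrose arrays of the same vessel in log2 units (x axis) for the 23 genes (y axis), with circles for vessels 2, 3 and 4, a star for vessel 1 and a thin line from the mean of the circles to the star. An asterisk by a gene marks an interaction with adjusted p under 0.05, and for all 8 such genes the star lies above 0 and the circles below it.

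Other probe sets gave a further reading of 13 of the genes. Of their 23 other probe sets 12 had the brighter side at log2 5 or more in every array, and 11 of these (10 genes) showed no overlap in the same direction, 4 of them with a gap of at least 0.5. The 11 dimmer probe sets were left out of this count, and some of them overlapped, with a gap of -1.10 for 1 of MUC20. The genes were chosen on this contrast, and the limit was met through their fluid arrays. These counts are therefore no support for the genes, and the share over all probe sets was not counted. All these probe sets share the RNA and the arrays with those chosen, so they repeat the measurement and not the experiment.

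The limits of the rule left near neighbours on either side. KRT80 and CYP1A1 stood just inside with gaps of 0.50, and MYH9, a myosin heavy chain, just outside with 0.49. In all 21 genes missed by a gap of 0.4 to 0.5 in the higher direction and 4 in the lower, led by HIRA, a histone chaperone, with 0.49. A further 7 genes were separated by at least 0.5 but did not reach log2 6 in every fluid array. Among these PRDM1, a repressor that drives terminal differentiation, had 5.74, 6.28 and 6.44 in fluid and 2.84, 3.56 and 4.48 in medium, NaCl and butyrate. SULT2B1, which sulfates cholesterol in skin and gut, had 5.88, 6.34 and 6.97 in fluid and no control above 4.79.

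Over all genes the fluid arrays differed from the 3 controls in 1959 of 8963 genes by limma (21.9%), 1149 higher and 810 lower, of which 465 changed at least 2-fold. After array median centring the split turned to 927 higher and 1250 lower of 2177. The count fell to 863 without the NaCl array and rose to 4473 without the butyrate array. Any non-overlap, of whatever size, was seen for 4.12% of these genes in the higher and 2.59% in the lower direction. Of 46 gene lists 5 held a gene of the 23, and each held 1.

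For several listed genes butyrate and the fluids stood together above the other controls. CPT1A, the gate enzyme of fatty acid oxidation in mitochondria, was at 8.48 to 9.18 in fluid and 8.95 with butyrate, but at 5.97 in medium and 5.80 with NaCl (difference 2.08, adjusted p = 0.00498). CDKN1A, an inhibitor of cell cycle kinases, was at 9.84 to 11.03 in fluid, 10.62 with butyrate, 8.92 in medium and 7.79 with NaCl (adjusted p = 0.0191), and did not pass without the medium or the NaCl array. KRT20, a keratin of mature intestinal cells, was at 11.74 to 12.39 in fluid and 12.23 with butyrate (adjusted p = 0.0134), and did not pass without the medium array or without the NaCl array (adjusted p up to 0.112). HMOX1, the heme-degrading enzyme, was at 8.19 to 10.71 in fluid and 10.39 with butyrate, and did not pass (adjusted p = 0.0707).

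Other lists moved in part, beside 12.8% of all genes tested that were higher and 9.04% that were lower. Of 11 hypoxia genes tested 7 were higher, among them ADM, a vasodilator peptide, at 10.15 to 10.93 in fluid and 9.51 to 9.73 in the controls (adjusted p = 2.11e-04). The hypoxia count was 4 after median centring, 3 without medium and 2 without NaCl. Of 15 NRF2 antioxidant genes 7 were higher, among them OSGIN1, a growth inhibitor induced by oxidative stress, with a gap of 0.68 that missed the rule on brightness. The NRF2 count was 4 without NaCl and 9 without medium. Of 27 DNA replication genes 6 were lower and 0 higher, and of 26 mitosis genes 0 passed in either direction. Replication genes lower in fluid numbered 1 without medium, 3 without NaCl and 18 without butyrate, and mitosis genes 9 without butyrate. MYC, a growth-promoting transcription factor, had 9.92 to 11.11 in fluid, inside the control range of 8.94 to 11.56 (adjusted p = 0.804). PTGS2, the inducible cyclooxygenase, had 4.53 to 8.03 in fluid and 4.00 to 6.33 in the controls, and did not pass (adjusted p = 0.39).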

How the data were processed

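RNA of Caco-2 cells from 15 treatments was measured on 1 Affymetrix array each. The authors deposited 1 table of 54675 probe sets; per the submitters' processing notes the values were made with GCRMA, a method for background correction, normalization and probe summary, and the version is not given in the sources used here. The deposited values were taken as log2 from their range (0.173 to 14.46). Of the probe sets 41097 had 1 gene symbol, and where a gene had several, the one brightest on average in the 15 arrays stood for it (19775 genes).

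The members and gene lists were chosen with earlier results of these data known. Genes with log2 5 or more in at least 3 of 15 arrays, or 4 of 12 fluid arrays, were tested. Tests used limma 3.58.1 in R 4.3.3 (two-sided, Benjamini-Hochberg, threshold 0.05). Fluid was compared with control, and within the fluids the contrasts of concentration and of vessel had both as factors. The model was run on simulated data with independent noise in each array. The real controls are 3 different treatments and the vessels are linked, so that run does not check this design. The vessel number in the labels pairs arrays of different concentrations. The correlation of 12 same-vessel pairs, with concentration means taken out, had a median of 0.376 (0.0243 to 0.781), and 10 were above 0.1. Control arrays have no vessel, so fluid against control was not blocked. The interaction was not blocked by vessel either. It pooled the later vessels and so did not use the pairing of arrays by vessel.

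Named by rule were the 12 genes with the largest gap each way with all arrays at log2 5 or more, the 6 largest with a dim side under it, up to 4 members of each list, the members passing a test within the fluids (up to 5 each way), and CPT1A, CYP1A1, HMOX1, CDKN1A, MYC and PTGS2. All other genes, and the 3 motifs, were chosen after their values were seen. Alternatives changed normalization, probe set choice, filters, limits and models, or left out arrays.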

Additional observations from a re-analysis of the deposited data

Results flagged for a closer look

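Fluid arrays of 1 concentration were examined in groups of 4, where chance flags about 1 in 20 groups. For 7 of the 69 combinations of gene and concentration examined, 1 array lay far from the other 3. Vessel 1 was that array 4 times: PIM1 (7.29, lowest with 0%), KLK7 (8.02, lowest with 0%), EMP1 (11.15, highest with 1%) and BHLHE40 (9.90, highest with 2%). Vessel 4 was that array for FCMR (6.92, lowest with 0%), CYP1A1 (9.91, highest with 1%) and ICAM3 (5.43, lowest with 2%). The combinations share the same fluid arrays and are not independent, and the rule had set a limit on the fluid array nearest the controls. The matching share among all genes was not counted. No excess over chance is therefore read from the 7, and nothing is read from the tally of vessel 1.

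The difference of 2% minus 0% was more positive in vessel 1 than in vessels 2 to 4 for 8 of the 23 genes by a limma interaction, with vessel 1 resting on 1 array at each concentration. The difference between the vessels was 1.96 for CDA, 1.23 for IGFL1, 1.11 for BHLHE40, 1.10 for QPRT, 1.06 for EMP1, 1.04 for ST6GALNAC2, 0.92 for MUC20 and 0.88 for CLDN3. The share of vessel 1's RNA quality or of its simulation in this was not tested.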

How the results depend on the processing

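The 22 higher genes and 1 lower gene became 4 and 0 with a minimum gap of log2 1, and 308 and 209 with any gap above 0. They became 52 and 6 without the 3 arrays of vessel 1. The lower count was 0 with a brightness limit of log2 7, 2 with every probe set on its own, 2 after array median centring and 5 after quantile normalization. Counts against single controls, added after the data were seen, were 762 and 619 for medium, 1008 and 1052 for NaCl and 370 and 280 for butyrate. Leaving out 1 array at a time gave 22 to 399 higher and 1 to 219 lower genes, with the most without butyrate. The higher counts were 43 without the 0% array of vessel 1, 65 without medium and 40 without NaCl. Of the 23 genes 16 were kept after median centring (C1orf116, FCMR, GPR157, CHI3L1, MUC20, CYP1A1 and KRT80 were lost), 21 after quantile normalization (CHI3L1 and KRT80 were lost) and 16 when probe sets of a gene were averaged (EMP1, BHLHE40, KLF11, DSC2, GPR157, CHI3L1 and MUC20 were lost).

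The 1959 genes of fluid against control became 4146 with a mean for each of the 6 treatments and ran from 863 to 4473 with 1 array left out. With 1 array left out MYC ran from -0.59 (without butyrate) to 0.72, ALDH3A1, a dehydrogenase, from -0.36 (without butyrate) to 1.41, and CLDN2 from -2.71 (without butyrate, where it passed) to 0.003 (without medium). For 2% against 0%, 0 of the 23 genes passed without the vessel block, against 2 with it. With the block, 0 also passed when the 0% array of vessel 2 or of vessel 3 was left out. The count was 13 without vessel 1 and 0 to 10 with 1 array left out. For vessel 1 against the others it was 0 without the concentration factor, 5 with averaged probe sets and 1 to 9 with 1 array left out. In both contrasts the share of all genes passing under these alternatives was not counted. The interaction passed for 5 to 8 genes with 1 array left out. Beyond fewer arrays or a changed limit, the cause of these shifts was not tested. Values under log2 5 limit what can be said of low controls.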
